A study of Drosophila melanogaster with 4 samples.

Results

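The piRNA pathway genes were followed through 5 classes of cells from Drosophila melanogaster testis tumors. The list holds 34 genes, taken by gene symbol, of the 17558 features in the deposited table of single-cell RNA counts, and all 34 were present in that table. Of these, 18 were assigned to the germline amplification branch, 15 to machinery that germline and somatic cells share, and 1, fs(1)Yb, to somatic gonadal cells alone. Membership was set by gene symbol and not by a cutoff on a measured value, but the list was chosen with earlier results of these data known.

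Tumors were made by overexpressing Unpaired (Upd), the ligand of the JAK-STAT pathway that keeps germline stem cells and cyst stem cells from differentiating. In Nanos-Upd flies Upd was driven by the germline nanos promoter, through P{w[+mC]=GAL4::VP16-nanos.UTR} over UAS - Upd, on a y[1] w[1118] P{hs70FLP} chromosome. In TrafficJam-Upd flies the driver was traffic Jam - GAL4 over UAS - Upd on a w[1118] chromosome, which is active in cyst cells. Both genotypes carried 1 copy of the reporter UAS-FRT-H3-GFP-FRT-H3-mKO, both carried UAS - Upd, and the heat-shock flippase P{hs70FLP} was named for Nanos-Upd alone. There were 2 libraries of each tumor type, each from roughly 18 to 20 pooled testis pairs of flies kept at 25C, made with a 10x Genomics 3′ kit. Fly age was not given in the sources used here, and no testis without Upd overexpression was analysed here. Nothing in the labels says whether the replicates came from separate crosses, so the p-values measure the spread between these libraries, which may be technical.

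piRNAs are small RNAs, longer than microRNAs, that guide Argonaute proteins of the PIWI clade to transposon transcripts in animal gonads. In germ cells precursors come from dual-strand clusters that Rhino marks, and the cytoplasmic slicers Aubergine and AGO3 amplify them in perinuclear nuage by cutting sense and antisense transcripts in turn, the ping-pong cycle. Somatic gonadal cells lack this cycle: they take precursors from single-strand clusters such as flamenco, process them at Yb bodies and at the mitochondrial surface, and load them into Piwi, which enters the nucleus and directs heterochromatin formation. In the testis the germline pathway is known above all for silencing the Stellate repeats through piRNAs from the Suppressor of Stellate copies.

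The table held 20618 cells with 2200 to 7499 UMIs (unique molecular identifiers, each standing for 1 captured RNA molecule) and 524 to 2499 genes per cell. The libraries held 3241 to 9093 cells and 13190124 to 33499923 UMIs, and 35 of 20583 distinct cell barcodes occurred in more than 1 library. The authors' deposited cell labels put 10889 cells in a GSC-like class (germline stem cell like), 8261 in a CySC-like class (cyst stem cell like), 624 in a spermatocyte class, 515 in a somatic class and 329 in a muscle class. How the labels were assigned was not given in the sources used here, and if they came from these expression values, class and level are not independent. Muscle markers summed to 19573 to 35214 CPM in the muscle class. In the spermatocyte class spermatid transcripts summed to 11796 to 27905 counts per 1000000 (CPM) and spermatocyte transcripts to 294 to 404 CPM. Of 13 spermatocyte markers tested by edgeR, 10 were higher and 0 lower there than in GSC-like cells, against 33.2% and 32.6% of all genes. All 10 spermatid markers were higher there too. The somatic class held markers of terminal epithelium and seminal vesicle at 189 to 343 CPM, below the 492 to 858 CPM of muscle. In the somatic class nord was at 149 to 270 CPM, Est-6 at 4.29 to 96.6 CPM, hth at 0 to 33.2 CPM and Abd-B at 0 to 1.53 CPM. Its 12 cyst lineage markers summed to 2299 to 3204 CPM. By edgeR 4 of the 12 were higher and 5 lower there than in CySC-like cells, against 14.8% and 10.1% of all genes. The 8 germline markers (nos, bam, bgcn, stet, zpg, ovo, otu and Rbp9) summed to 764 to 1180 CPM in GSC-like cells and to 57.5 to 174 CPM in CySC-like cells. Markers of the cyst lineage, 12 genes, summed to 3827 to 5667 CPM in CySC-like cells and to 297 to 520 CPM in GSC-like cells. By edgeR, 9 of 11 early germline markers were higher in GSC-like cells and pgc was lower (−3.46), and 10 of 11 cyst lineage markers were lower. Cells with at least 2 markers of each lineage made up 14.5% of the GSC-like and 6.22% of the CySC-like class, and the shares were highest in Nanos-Upd 2, at 19.1% and 10.7%.

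Levels below are CPM, UMIs of a gene per 1000000 UMIs of the summed cells of 1 class in 1 library, given in the order Nanos-Upd 1, Nanos-Upd 2, TrafficJam-Upd 1 and TrafficJam-Upd 2. A 3′ tag gives 1 end per RNA molecule, so these levels need no division by gene length. A level is a share of the class's RNA and not an amount per cell. Differences are log2 fold changes with their standard error (SE), from edgeR's quasi-likelihood test on the 4 summed counts per class, with the library as a block for comparisons of classes. A call is an adjusted p under 0.05, with Benjamini-Hochberg adjustment over all genes tested.

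GSC-like cells held the pathway at its highest level. The 34 genes together took 3690 to 5439 CPM in GSC-like cells, 1588 to 2180 CPM in CySC-like cells, 1286 to 2717 CPM in the spermatocyte class, 982 to 1709 CPM in the somatic class and 1001 to 1954 CPM in muscle. GSC-like cells stood above every other class in every library, and the other 4 classes overlapped. Most of the difference was that of the germline branch, which summed to 2765 to 4286 CPM in GSC-like cells against 738 to 1108 CPM in CySC-like cells. The other 16 genes summed to 924 to 1153 CPM and 786 to 1073 CPM, ranges that overlap, although the GSC-like sum was the higher one within each of the 4 libraries. Without piwi, the remaining 15 genes summed to 756, 778, 770 and 687 CPM against 509.6, 579, 510.4 and 465 CPM, with no overlap. By gene, 21 members were highest in GSC-like cells in all 4 libraries, 2 were highest in CySC-like cells (piwi and fs(1)Yb) and 1 was highest in muscle (tud). The share of all genes highest in each class was not counted, so these numbers only describe the list.

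**Figure D1:**
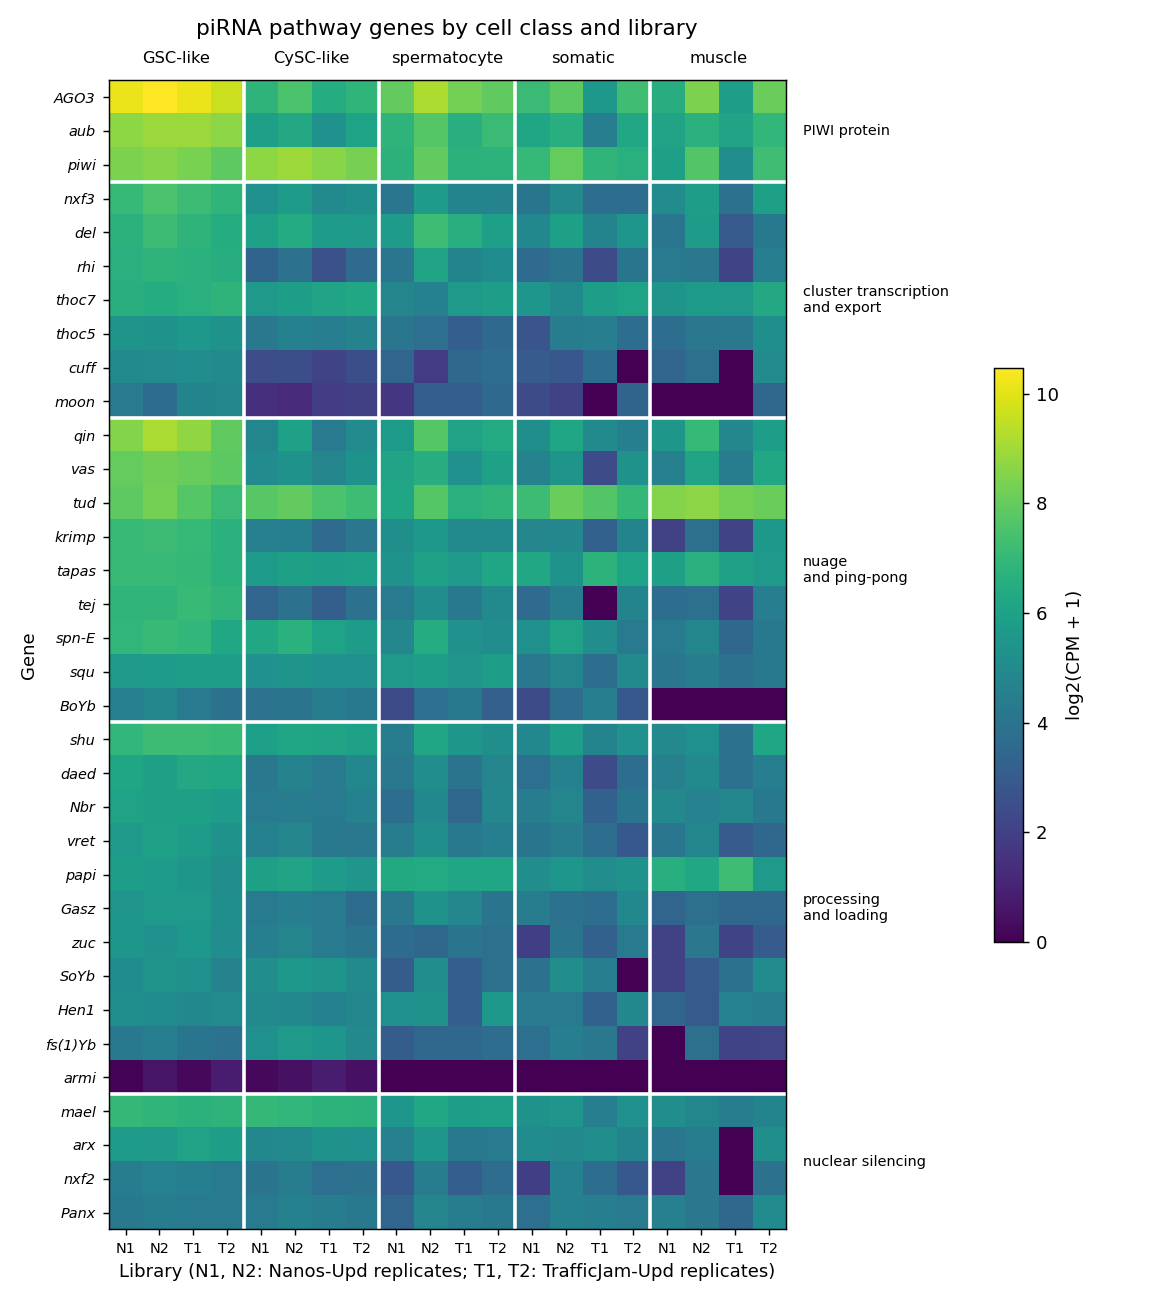
Level of each piRNA pathway gene (rows, by role) in each class and library (columns), as log2(CPM + 1). Lighter colours are higher levels. AGO3 was brightest in the GSC-like columns (786 to 1422 CPM), piwi and fs(1)Yb were highest in the CySC-like columns, and armi was close to 0 throughout.

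Between GSC-like and CySC-like cells, 33 of the 34 members had enough counts to be tested; armi did not. Of these, 22 were higher in GSC-like cells, 6 were higher in CySC-like cells and 5 were not called. Over all 8909 genes tested, 72.6% were called, 35.1% as higher and 37.4% as lower in GSC-like cells, so a call by itself was common. By branch, 15 of 18 germline genes were higher and 0 lower, with a median log2 fold change of 2.03, while 7 of 15 tested genes of the other branches were higher and 6 lower, with a median of 0.12. The median over all members tested was 0.66 and over all genes −0.06.

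The direction of the small differences depended on how libraries were scaled. The TMM scaling factors were 0.973 to 1.27 in GSC-like and 0.828 to 0.969 in CySC-like sums. With total UMIs alone, an alternative added after seeing the data, the median of all genes moved to 0.26, 25 members were higher and 3 lower, and the share of all calls that were higher went from 48.4% to 66%. piwi, papi and fs(1)Yb kept the call as lower in GSC-like cells under both scalings.

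The 3 PIWI proteins split. AGO3, the slicer that carries mostly sense piRNAs in the ping-pong cycle, was the most abundant transcript of the list, at 1144, 1422, 1140.1 and 786 CPM in GSC-like and, in the same order, 111, 179.6, 88.7 and 116 CPM in CySC-like cells. The log2 fold change was 2.88 ± 0.13 (SE, adjusted p = 2.68e-07) and the classes did not overlap. aub, its partner slicer, stood at 412, 478, 478 and 398 CPM in GSC-like against 59.6, 79.5, 38.2 and 66.0 CPM in CySC-like cells. Every GSC-like sum was above every CySC-like sum, with a log2 fold change of 2.58 ± 0.19 (adjusted p = 3.41e-05).

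piwi, the nuclear member used in both germline and soma, went the other way. The levels of piwi were 336, 375, 331 and 237 CPM in GSC-like against 415, 494, 388 and 321 CPM in CySC-like cells. It was higher in CySC-like cells within each of the 4 libraries although the classes overlapped across libraries, and the log2 fold change was −0.66 ± 0.08 (adjusted p = 1.57e-05), or −0.34 (adjusted p = 0.00131) with total UMIs alone. piwi and aub are neighbours on the minus strand of chromosome arm 2L, at 2L:10982205-10987420 and 2L:10997819-11001476 (BDGP6.54 assembly, Ensembl annotation), 10399 bases apart. AGO3 lies at 3L:23554593-23689640 on the plus strand.

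All 7 genes of cluster transcription and export were higher in GSC-like cells. rhi, the HP1 relative that binds dual-strand clusters, was at 98.5, 112, 102 and 91.6 CPM in GSC-like against 9.30, 14.7, 5.09 and 11.7 CPM in CySC-like cells, a log2 fold change of 3.03 ± 0.21 (adjusted p = 1.66e-05). moon, a TFIIA-L relative that starts transcription at Rhino-bound clusters, had 19.6, 12.1, 25.4 and 27.3 CPM in GSC-like and 1.63, 1.39, 2.70 and 2.96 CPM in CySC-like cells (2.95 ± 0.17, adjusted p = 6.24e-08). cuff, which shields cluster transcripts from splicing and termination, had 30.9, 32.5, 34.5 and 31.7 CPM and 4.57, 4.73, 3.45 and 4.74 CPM (2.57 ± 0.14, adjusted p = 4.58e-08). None of these 3 genes overlapped between the classes, and cuff had the smallest coefficient of variation of any member in GSC-like cells, 4.69% over the 4 libraries.

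The remaining cluster genes moved less. nxf3, the export factor for cluster transcripts, had a log2 fold change of 1.54 ± 0.10. Those of thoc5 and thoc7, subunits of the THO complex that packages cluster transcripts for export, were 0.66 and 0.37. Both were counted in the germline branch. Mean levels in GSC-like, CySC-like and muscle cells were 42.7, 21.7 and 20.8 CPM for thoc5 and 98.6, 61.9 and 55.1 CPM for thoc7. del, which joins Rhino to its effectors, was at 104, 143, 112 and 87.8 CPM in GSC-like against 62.8, 85.8, 53.0 and 49.2 CPM in CySC-like cells (0.53 ± 0.09). The partners rhi and cuff, which bind through del, thus showed far larger differences in level than del did. The call of thoc7 was lost without the library block (adjusted p = 0.176).

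Of the 9 nuage genes, 6 were higher in GSC-like cells and 0 were lower. qin, a Tudor protein that keeps AGO3 and Aubergine in heterotypic ping-pong, had 368, 568, 427 and 242 CPM in GSC-like and 27.1, 63.6, 19.0 and 32.2 CPM in CySC-like cells, with the largest log2 fold change of the list, 3.24 ± 0.27 (adjusted p = 0.000294). tej, a Tudor and LOTUS protein that recruits Vasa, had 114, 114, 137 and 115 CPM and 9.63, 14.6, 7.94 and 14.2 CPM (3.06 ± 0.17, adjusted p = 1.92e-06). vas, the DEAD-box helicase that marks germ cells, had 258, 291, 261 and 226 CPM and 32.6, 40.8, 25.9 and 39.5 CPM (2.60 ± 0.11, adjusted p = 1.28e-08). The classes were apart by a wide margin for all 3.

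krimp, which brings Aubergine and AGO3 together, was at 133, 146, 129 and 102 CPM in GSC-like against 22.5, 21.7, 11.5 and 16.6 CPM in CySC-like cells (2.52 ± 0.15, adjusted p = 1.61e-06). tapas, a further Tudor protein of nuage, had a log2 fold change of 0.81. spn-E, a helicase of the ping-pong cycle, differed least among the called nuage genes, with 119.6, 132, 121 and 76.3 CPM against 76.4, 103, 66.1 and 53.0 CPM, sums that overlap. Its log2 fold change of 0.28 ± 0.09 (adjusted p = 0.0159) lost the call without TrafficJam-Upd 1 (adjusted p = 0.0862) and without TrafficJam-Upd 2 (adjusted p = 0.0553).

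tud, squ and BoYb of the same group were not called. tud, the founding Tudor protein and a scaffold for Aubergine, stood at 236, 308, 207 and 139 CPM in GSC-like against 213, 246, 183 and 147 CPM in CySC-like cells (−0.17, adjusted p = 0.0971). BoYb, the germline relative of Yb, stood at 22.4, 27.0, 19.3 and 14.4 CPM and at 14.7, 15.3, 20.1 and 17.6 CPM. squ, a nuage protein, had a log2 fold change of 0.15.

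**Figure D2:**
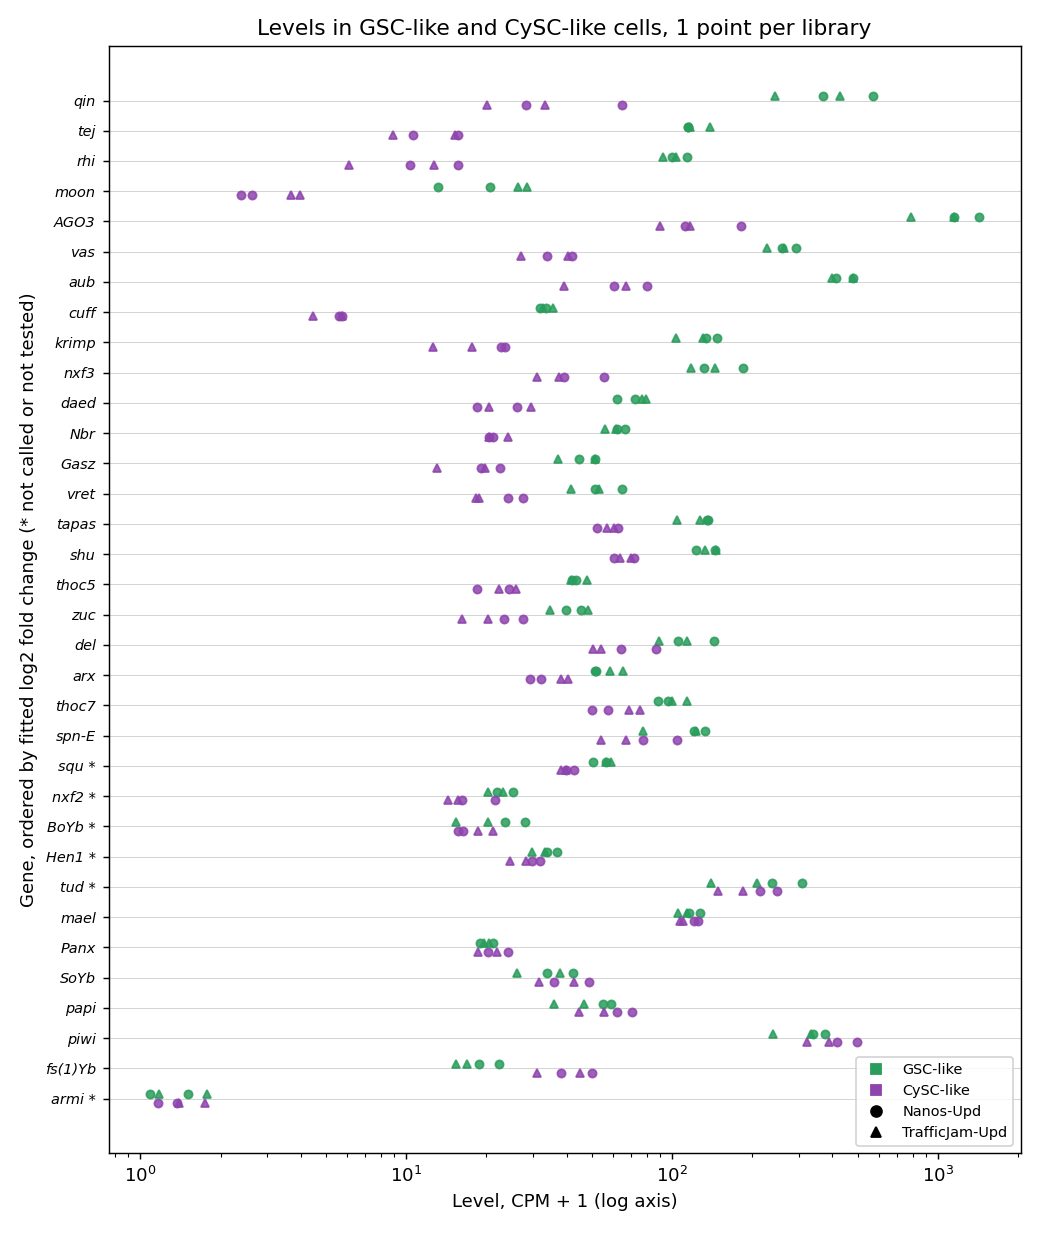
Level (CPM + 1, log axis) of each piRNA pathway gene (rows, ordered by fitted log2 fold change) in GSC-like (green) and CySC-like (purple) cells, 1 point per library, circles for Nanos-Upd and triangles for TrafficJam-Upd, with an asterisk where a gene was not called or not tested. The green and purple points of qin, tej, rhi, moon, AGO3, vas, aub, cuff and krimp were far apart, those of mael, Panx and SoYb overlapped, and those of fs(1)Yb were apart in the other direction.

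The genes of precursor processing and loading went both ways, with 6 higher and 3 lower in GSC-like cells of the 10 tested. The gene with the largest difference toward CySC-like cells was fs(1)Yb, which builds the Yb body of somatic gonadal cells. It had 17.7, 21.3, 15.9 and 14.4 CPM in GSC-like and 37.1, 48.8, 43.9 and 29.8 CPM in CySC-like cells, with no overlap and a log2 fold change of −1.50 ± 0.11 (adjusted p = 4.64e-07). SoYb, a Yb relative found in germline and soma, was at 32.8, 41.5, 37.0 and 24.9 CPM and at 34.9, 47.4, 41.5 and 30.6 CPM (−0.50 ± 0.09, adjusted p = 0.000524). papi, a mitochondrial Tudor protein, was at 57.7, 54.1, 45.5 and 34.9 CPM and at 60.7, 69.4, 54.4 and 43.5 CPM (−0.57 ± 0.08, adjusted p = 0.000102). SoYb and papi were each higher in the CySC-like cells of every library while their classes overlapped, and SoYb lost the call with total UMIs alone (−0.18, adjusted p = 0.0875).

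The 6 processing genes higher in GSC-like cells included mitochondrial factors, though papi, also mitochondrial, was lower there. zuc, the endonuclease that cuts phased piRNAs, was at 44.2, 38.9, 47.1 and 33.6 CPM in GSC-like against 22.2, 26.3, 19.3 and 15.2 CPM in CySC-like cells (0.65). daed and Gasz, which form the mitochondrial platform for Armitage, had log2 fold changes of 1.36 and 1.04. Nbr, an exonuclease that trims 3′ ends, had 1.25, vret, a Tudor partner of Armitage, had 0.97, and shu, a co-chaperone for loading, had 0.74. Hen1, the methyltransferase of piRNA 3′ ends, was not called (−0.08).

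armi, the helicase that feeds precursors to Zucchini, could not be followed. It had 19 UMIs in all GSC-like and 12 in all CySC-like cells and 0 UMIs in the other 3 classes. A count of 3 UMIs in the pooled class would be 1.24 CPM in the spermatocyte, 1.58 CPM in the somatic and 2.56 CPM in the muscle class. The annotated 3′ end of armi overlaps CG46463 on the same strand, and CG46463 had 14 and 9 UMIs in the GSC-like and CySC-like cells. The same kind of overlap holds for rhi with CG10936, squ with grp, SoYb with CG31875 and nxf3 with ssp2. vas and qin share exons or a locus with solo and Tssk, so these levels carry the uncertainty of how such reads were assigned.

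Of the 4 genes of nuclear silencing, 1 was higher and 2 were lower in GSC-like cells. arx, the Piwi cofactor Asterix, was at 50.6, 50.4, 64.1 and 57.3 CPM in GSC-like against 28.2, 31.0, 39.5 and 37.2 CPM in CySC-like cells (0.40), and lost the call without the library block (adjusted p = 0.117). mael, which acts downstream of Piwi in transcriptional silencing, was at 126, 115, 104 and 112 CPM and at 124, 119.5, 109 and 106 CPM. Its called log2 fold change of −0.32 ± 0.08 (adjusted p = 0.00438) depended on the scaling. The CPM was lower in GSC-like cells in 2 of 4 libraries, and with total UMIs alone the value was −0.003 (adjusted p = 0.973). Panx, the core of the Piwi silencing complex, was at 17.8, 20.2, 18.6 and 19.4 CPM and at 19.3, 23.2, 21.0 and 17.6 CPM.

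The log2 fold change of Panx was −0.41 ± 0.11 (adjusted p = 0.00687), which lost the call with total UMIs alone (−0.10, adjusted p = 0.419) and without Nanos-Upd 2 (adjusted p = 0.0547). nxf2, its partner in that complex, was not called (0.12). With total UMIs alone squ (0.47), nxf2 (0.43) and Hen1 (0.23) were called as higher in GSC-like cells.

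The germline genes that remained in CySC-like cells were set beside germline markers that the list did not use. Members were taken whose CySC-like level, as a percent of the GSC-like level of the same library, did not exceed that of the highest single marker (25.6%) in any library. These were 9, all of the germline branch, and the CySC-like level was a median of 9.28% to 15.6% of the GSC-like level of the same library. qin had 4.46%, 9.28% and 13.3% as lowest, median and highest, AGO3 had 7.78%, 11.2% and 14.7%, and aub had 7.99%, 15.5% and 16.6%. tej, moon, rhi, vas, cuff and krimp made up the rest of the 9. The 8 germline markers, summed, were at 5.12%, 11.4% and 14.7%, and the medians of single markers ran from 6.94% to 20.4%. The 9 genes were chosen by that marker limit, so their place under the highest marker is a description and no finding. The longer list of 12 early germline markers, which adds osk, gcl, pgc and mei-P26, summed to 15.1%, 21.7% and 24.8%, and 6 germline-branch genes lay below that range in every library. In CySC-like cells 6.22% had markers of both lineages. In the edgeR test without such cells 22 members were again higher and 6 lower in GSC-like cells, but these percentages were not recomputed.

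The other 25 members stood at a median of 29.5% or more, starting with nxf3 at 20.9%, 29.5% and 31.3%. This group held germline-branch genes too. The CySC-like level of del was a median of 58.1%, of spn-E 66.7%, of BoYb 84.9% and of tud 89.3% of the GSC-like level. piwi, at 117%, 128% and 135%, and fs(1)Yb, at 207%, 219% and 276%, were above 100% in every library, as were papi and SoYb.

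**Figure D3:**
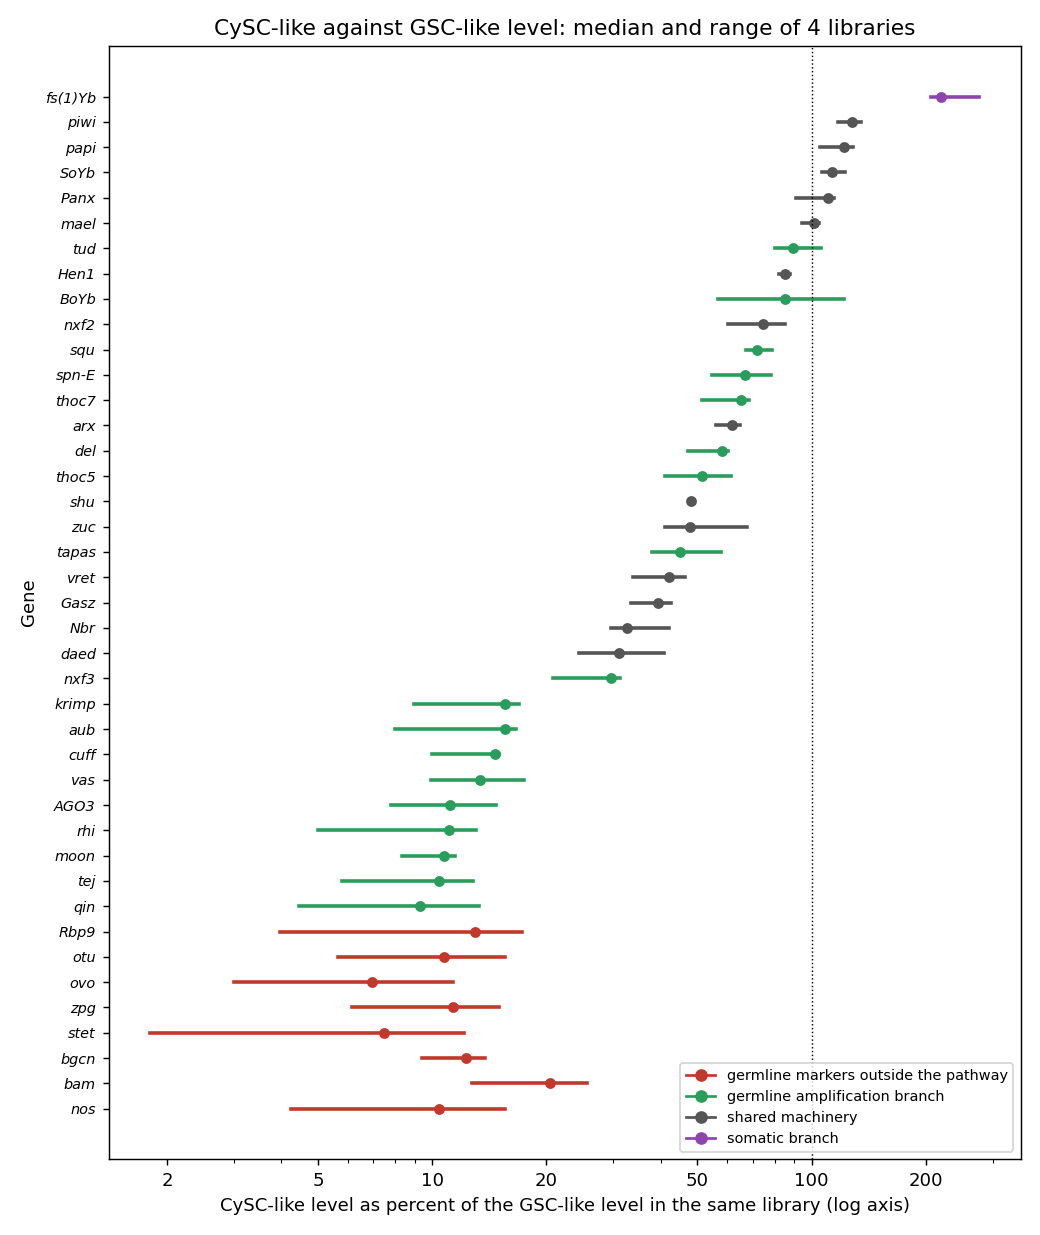
CySC-like level as a percent of the GSC-like level of the same library for each piRNA pathway gene tested and for the 8 germline markers (red), on a log axis, with the median of the 4 libraries as a point and their range as a bar. Medians of 9 germline-branch genes (green) chosen for lying at or under the highest marker were 9.28% to 15.6%, and fs(1)Yb lay highest with 207% to 276%.

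The same split showed in single cells. Cells were thinned to 2200 UMIs each, the smallest total in the table, and the shares below are the lowest and highest of the 4 libraries. AGO3 was detected in 78.6% to 92.0% of GSC-like, 15.9% to 27.6% of CySC-like and 11.9% to 32.1% of muscle cells. aub was detected in 57.2% to 63.6%, 8.54% to 15.01% and 13.1% to 17.9%, and vas in 39.1% to 44.7%, 6.21% to 8.93% and 3.61% to 11.5%. The CySC-like shares of all 3 overlapped or lay below those of muscle, so no expression in CySC-like cells was read from them. Muscle itself held germline markers at 276 to 403 CPM, and the part of cells with markers of both lineages in these shares was not tested.

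piwi, in contrast, was detected in 39.4% to 52.6% of GSC-like and 49.3% to 65.6% of CySC-like cells and in 4.82% to 25.0% of muscle cells. fs(1)Yb was detected in 3.22% to 4.67%, 5.92% to 9.88% and 0% to 1.28%, and mael in 20.9% to 23.1%, 20.6% to 24.0% and 4.76% to 5.95%. For these 3 genes the CySC-like share was above the muscle share in every library. A thinned GSC-like cell held UMIs of 6.05 to 7.56 members on average and a CySC-like cell of 2.97 to 3.89. Without thinning piwi was detected in 57.2% to 70.4% of GSC-like and 61.1% to 78.2% of CySC-like cells, at median depths of 4004 and 3102 UMIs, with 3275 UMIs in muscle.

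From GSC-like cells to the spermatocyte class most members fell. Of 33 tested, 25 were lower and 1 higher in the spermatocyte class, against 32.6% lower and 33.2% higher among all 9079 genes tested. The median log2 fold change of the members was −1.18, that of all genes −0.22. Spermatid markers summed to a higher level than spermatocyte markers in the spermatocyte class, and its germline markers summed to 204 to 504 CPM. The change of the members between the stages in between was not measured.

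AGO3 was at 245, 582, 315 and 241 CPM in the spermatocyte class (−1.60 ± 0.16, adjusted p = 1.81e-05) and aub at 110.1, 206, 97.3 and 142 CPM (−1.54 ± 0.20, adjusted p = 0.000106). vas was at 68.0, 91.4, 38.4 and 63.4 CPM (−1.84 ± 0.22, adjusted p = 5.45e-05) and piwi at 106, 245, 105 and 109 CPM (−1.09 ± 0.21, adjusted p = 0.00129). For AGO3, aub and vas each spermatocyte sum was below each GSC-like sum, and for piwi the value in Nanos-Upd 2 was above the lowest GSC-like value. Nanos-Upd 2 had the highest spermatocyte level of AGO3, aub, vas and piwi, and 14.2% of its spermatocyte cells had markers of both germline and cyst lineages. In the edgeR test without such cells 25 members were again lower and 1 higher, but the levels of single libraries were not recomputed.

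Beside AGO3, aub, vas and piwi, the largest falls were those of nxf3 (−2.18), tej (−2.10), qin (−1.95), krimp (−1.65), cuff (−1.62), shu (−1.59), thoc5 (−1.59) and daed (−1.50). rhi (−1.49), moon (−1.49), Nbr (−1.48), zuc (−1.47), thoc7 (−1.24), spn-E (−1.18), SoYb (−1.08) and tapas (−1.003) came next. arx (−0.97), vret (−0.93), mael (−0.82), Gasz (−0.78) and tud (−0.73) fell least. Leaving out Nanos-Upd 1 ended the calls of tud (−0.47, adjusted p = 0.117), SoYb (−0.81, adjusted p = 0.089) and Gasz (−0.67, adjusted p = 0.0872), and leaving out TrafficJam-Upd 2 ended that of Gasz (−0.73, adjusted p = 0.0593).

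papi was the exception, at 81.0, 83.5, 71.7 and 71.7 CPM in the spermatocyte class against 34.9 to 57.7 CPM in GSC-like cells. The classes did not overlap and the log2 fold change was 0.87 ± 0.21 (adjusted p = 0.00532); without the filter on low counts the call was lost (adjusted p = 0.18). del, squ, BoYb, fs(1)Yb, Hen1, Panx and nxf2 were not called.

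Among the CySC-like, somatic and muscle classes, piwi was highest in CySC-like cells, as were mael and fs(1)Yb among other members. piwi was at 129.8, 256, 116 and 98.2 CPM in the somatic class, below the CySC-like level in each library and with no overlap (−1.38 ± 0.15, adjusted p = 3.05e-06). Of 32 members tested, 8 were lower in the somatic than in the CySC-like class and 0 were higher, against 10.1% lower and 14.8% higher among all 7838 genes. At an unadjusted p under 0.05, 11 of the 32 members differed, against 2743 of all 7838 genes. Hemocyte markers summed to 335 CPM in the somatic class of Nanos-Upd 1, with Hml at 224 CPM, and to 28.5 to 34.3 CPM in that of the other 3 libraries. Without Nanos-Upd 1, 5 members were lower, and without TrafficJam-Upd 1 also 5. The part of hemocyte RNA in these calls was not tested. The median log2 fold change of the members was −0.48 and that of all genes −0.02.

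mael fell furthest, at 38.9, 42.9, 21.4 and 38.0 CPM in the somatic class (−1.56 ± 0.18, adjusted p = 7.11e-06). fs(1)Yb was at 13.0, 21.5, 17.2 and 3.17 CPM (−1.41 ± 0.28, adjusted p = 0.00144). nxf3 (−1.06 ± 0.25, adjusted p = 0.00462) and spn-E (−0.85 ± 0.19, adjusted p = 0.00362) were lower too. squ (−0.74, adjusted p = 0.0422), shu (−0.70, adjusted p = 0.0207) and del (−0.58, adjusted p = 0.0494) were near the threshold, and their calls were lost in 6, 4 and 7 of 12 alternatives, which for all 3 included leaving out Nanos-Upd 1 or TrafficJam-Upd 1.

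aub (0.22, adjusted p = 0.443), AGO3 (0.26, adjusted p = 0.33) and vas (−0.20, adjusted p = 0.647) were not called between the somatic classes. armi and moon had too few counts to be tested there.

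The muscle class was compared as the class labelled outside the germline and cyst lineages, but it held cyst lineage markers at 1780 to 3025 CPM, against 3827 to 5667 CPM in CySC-like cells. The markers differed: puc was at 431 to 699 CPM in muscle and 447 to 579 CPM in CySC-like cells, and Socs36E at 463 to 1029 and 1015 to 1164.5 CPM. CadN was at 288 to 542 and 522 to 1103 CPM. Wnt4 was at 55.2 to 457 CPM in muscle and 880 to 1355 CPM in CySC-like cells, and tj at 13.8 to 230 and 400 to 676 CPM. The part of cyst lineage RNA in the muscle levels was not tested. Between CySC-like cells and muscle, 9 of 32 members were higher in CySC-like cells and 5 were lower, against 13.2% and 15% of all 7526 genes. piwi, at 61.5, 203, 34.5 and 151 CPM in muscle, was higher in CySC-like cells (1.77 ± 0.31, adjusted p = 0.00156), as were fs(1)Yb (2.78 ± 0.46, adjusted p = 6.6e-05), mael (1.88 ± 0.23, adjusted p = 1.28e-06) and spn-E (1.80 ± 0.27, adjusted p = 1.66e-05). Every CySC-like sum of these 4 genes was above every muscle sum. SoYb (1.30), zuc (1.26), del (1.26 ± 0.29, adjusted p = 0.00202) and squ (1.005) were higher as well. The calls of SoYb, zuc and squ were each lost by DESeq2, with cells of at least 3000 UMIs and without Nanos-Upd 1 (adjusted p = 0.11, 0.189 and 0.0545), those of SoYb and squ also without Nanos-Upd 2 (adjusted p = 0.175 and 0.0511) and that of zuc without TrafficJam-Upd 1 (adjusted p = 0.132). BoYb had 0 UMIs in all muscle cells and 478 UMIs, or 16.7 CPM, in all CySC-like cells, at least 6.52-fold above the 2.56 CPM that 3 UMIs over the pooled muscle cells would give.

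tud was higher in muscle than in CySC-like cells in every library, at 366, 403, 314 and 269 CPM against 213, 246, 183 and 147 CPM, with no overlap (−0.98 ± 0.15, adjusted p = 2.23e-05). papi (−0.87, adjusted p = 0.00941), cuff (−1.73, adjusted p = 0.0299), qin (−1.01, adjusted p = 0.0011) and aub (−0.75, adjusted p = 0.00575) were also higher in muscle. cuff lost the call without Nanos-Upd 1, Nanos-Upd 2 or TrafficJam-Upd 2 (adjusted p = 0.0643, 0.103 and 0.365), and papi without TrafficJam-Upd 1 (−0.50, adjusted p = 0.144). The muscle class held the 8 germline markers at 276 to 403 CPM, more than the 57.5 to 174 CPM of CySC-like cells, most of it from Rbp9, which was at a median of 103% of its GSC-like level. bam, bgcn, stet and zpg were at 0 in muscle in at least 1 library each. Cells with markers of both lineages made up 19.0% of the muscle cells of Nanos-Upd 2. In the test without such cells 5 members were again lower in CySC-like cells, and cuff, qin and aub kept their calls. Without the library block cuff, qin and aub lost the call (adjusted p = 0.0538, 0.106 and 0.0505). AGO3 (−0.63, adjusted p = 0.0635) and vas (−0.54, adjusted p = 0.137) were not called. AGO3 was called as higher in muscle with RLE scaling (adjusted p = 0.0433) and with cells of at least 3000 UMIs (adjusted p = 0.036). It was also called without Nanos-Upd 1 (adjusted p = 0.0279) and without TrafficJam-Upd 1 (adjusted p = 0.00275).

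Transcripts of 2 piRNA sources, lncRNA:flam and the summed Suppressor of Stellate copies, differed in opposite directions between GSC-like and CySC-like cells. lncRNA:flam, the single-strand cluster that feeds Piwi in somatic gonadal cells, was at 303, 385, 229 and 164.6 CPM in CySC-like and at 41.9, 67.4, 26.1 and 23.8 CPM in GSC-like cells, with no overlap (−3.13 ± 0.12, adjusted p = 8.71e-09). It was at 88.0, 216, 60.0 and 69.7 CPM in the somatic class (−1.29 ± 0.17 against CySC-like, adjusted p = 3.3e-05) and at 22.7, 166, 20.7 and 32.3 CPM in muscle (2.16 ± 0.33 for CySC-like over muscle, adjusted p = 0.000489). Nanos-Upd 2 had the highest level in all 5 classes.

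The Suppressor of Stellate copies, 34 features summed and added to the list after the table was seen, were at 24.2, 27.3, 29.3 and 29.2 CPM in GSC-like against 3.92, 4.73, 1.35 and 4.94 CPM in CySC-like cells. In the spermatocyte class they were at 4.32, 31.3, 7.68 and 11.0 CPM. These copies are near identical, so the sum and each copy carry the uncertainty of how such reads were assigned. Only 2 copies had enough counts for a test. The 13 X-linked Stellate copies, the targets of those piRNAs, summed to 0.421 to 1.03 CPM in GSC-like cells against 1.38 to 1.76 CPM in CySC-like cells. These sums rest on only 5 to 12 UMIs per library in GSC-like and 7 to 19 UMIs in CySC-like cells. Ste12DOR had 0 UMIs in every class and library.

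**Figure D4:**
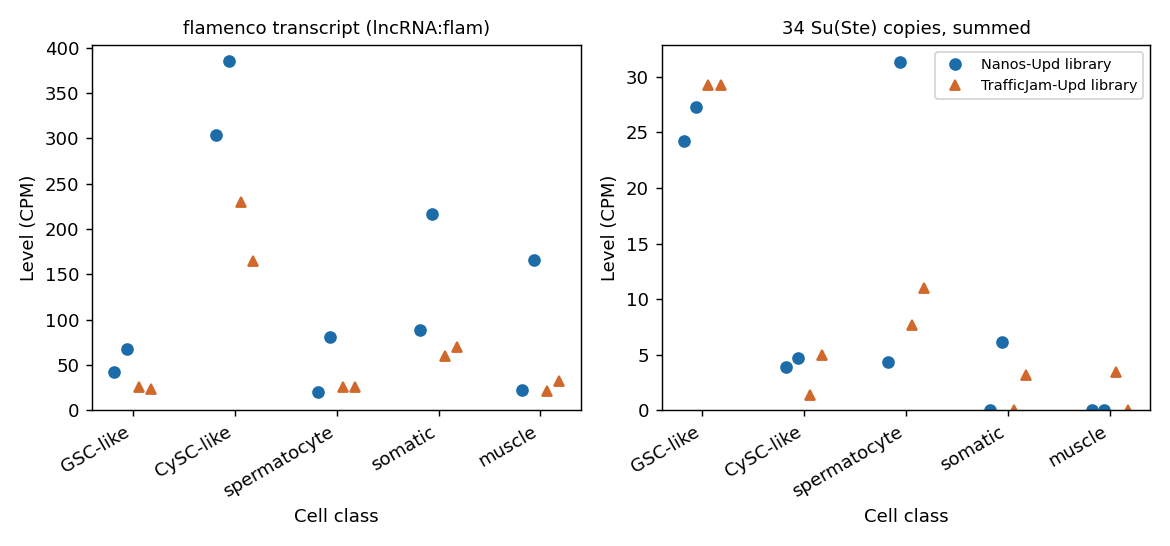
Level of lncRNA:flam and of the summed Suppressor of Stellate copies by class, in CPM, 1 point per library, circles for Nanos-Upd and triangles for TrafficJam-Upd. The flamenco transcript was highest in CySC-like cells in every library (164.6 to 385 CPM), and the suppressor copies ranged from 24.2 to 29.3 CPM in the GSC-like class and reached 31.3 CPM in the spermatocyte class of Nanos-Upd 2.

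Other genes of the pathway, 23 of a list of 25 partners and cofactors found in the table, were mostly higher in GSC-like cells. In that class 19 were higher and 1 was lower than in CySC-like cells, against 35.1% and 37.4% of all genes tested, with a median log2 fold change of 0.68 beside 2.03 for the germline branch and −0.06 for all genes. CG2678, which encodes Kipferl, the zinc finger protein that recruits Rhino to many clusters, had 1.56 ± 0.19, egg, the H3K9 methyltransferase used by Piwi, had 1.27 ± 0.10, and Trf2, a core promoter factor that acts with Moonshiner, had 1.09 ± 0.10. Hsp83, the chaperone for loading, had −0.24 ± 0.08. In the spermatocyte class 19 partners were lower and 0 higher than in GSC-like cells, against 32.6% and 33.2% of all genes, led by CG2678 (−2.02), egg (−1.85) and ova (−1.67). The list was drawn up with earlier results of these data known, so its counts describe it and are no independent evidence.

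The tumor types were compared within each class, Nanos-Upd over TrafficJam-Upd, to ask whether the pathway differs with the tumor type. The types differ in the cell type that supplies Upd, but also in the form of GAL4, in P{hs70FLP} and in the marked chromosome. These cannot be told apart here. In GSC-like cells 0 of 33 members were called by edgeR, against 3.12% of all 9466 genes tested (2.05% higher and 1.07% lower in Nanos-Upd). DESeq2 likewise called 0 members. By edgeR 3 of the 33 (arx, moon and tud) had an unadjusted p under 0.05, against 2443 of the 9466 genes. piwi had a log2 fold change of 0.18 ± 0.20 (adjusted p = 0.615), aub of −0.13 ± 0.20 (adjusted p = 0.717), AGO3 of 0.27 ± 0.20 (adjusted p = 0.424) and vas of 0.02 ± 0.19 (adjusted p = 0.96). The members' values in the tumor types did not overlap for 17 of the 33 tested, against 59.7% of all genes. Differences of the size of these standard errors were not detectable with 2 libraries per type.

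moon came closest, at 19.6 and 12.1 CPM in Nanos-Upd and 25.4 and 27.3 CPM in TrafficJam-Upd GSC-like cells, without overlap (−0.89 ± 0.24, adjusted p = 0.0579). It was called as lower in Nanos-Upd without the filter on low counts (−0.90, adjusted p = 0.00398), without cells of mixed markers (−0.97, adjusted p = 0.0241) and with RLE scaling (−0.93, adjusted p = 0.0466). With total UMIs alone it was not (−0.74, adjusted p = 0.101), nor was it by DESeq2 or with cells of at least 3000 UMIs. With 1 library left out its log2 fold change ran from −1.29 to −0.58. arx (−0.42, adjusted p = 0.167) and tud (0.50 ± 0.22, adjusted p = 0.158) were not called.

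In CySC-like cells 0 of 33 members were called between the tumor types by edgeR or by DESeq2. By edgeR 2.84% of 8701 genes were called (1.57% higher and 1.26% lower). An unadjusted p under 0.05 was found for 7 of the 33 members, against 2386 of the 8701 genes. These 7 were BoYb, arx, del, krimp, spn-E, thoc7 and tud. piwi had 0.21 ± 0.12 (adjusted p = 0.308), aub 0.26 ± 0.30 (adjusted p = 0.612), AGO3 0.35 ± 0.25 (adjusted p = 0.399) and vas 0.02 ± 0.22 (adjusted p = 0.968). thoc7, at 49.0 and 56.4 CPM in Nanos-Upd and 67.7 and 74.5 CPM in TrafficJam-Upd, had −0.59 ± 0.14 (adjusted p = 0.0578). arx, at 28.2 and 31.0 CPM against 39.5 and 37.2 CPM, had −0.53 ± 0.14 (adjusted p = 0.0712). Neither gene overlapped between the types, and 16 of the 33 tested members did not, against 60.5% of all genes.

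thoc7 was called in CySC-like cells without the filter on low counts (−0.61, adjusted p = 0.00319), without cells of mixed markers (−0.61, adjusted p = 0.0439) and without Nanos-Upd 2 (−0.67, adjusted p = 0.0344). arx was called without the filter (−0.55, adjusted p = 0.0202).

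Whether the tumor type effect differed between the classes was tested as an interaction by edgeR. There 0 of 33 members were called, against 1.35% of 9787 genes (0.787% higher and 0.562% lower). Of the 33, 2 (BoYb and zuc) had an unadjusted p under 0.05, against 900 of the 9787 genes. BoYb had the smallest adjusted p, with a difference of log2 fold changes of 0.82 ± 0.24 (adjusted p = 0.105), and was called with RLE scaling (0.90, adjusted p = 0.0497). The interaction was −0.11 (adjusted p = 0.934) for piwi, −0.51 ± 0.27 (adjusted p = 0.654) for aub, −0.14 (adjusted p = 0.934) for AGO3 and −0.10 (adjusted p = 0.952) for vas. TrafficJam-Upd 2 bore on this result: without it aub (−0.98, adjusted p = 0.00218), rhi (−1.20, adjusted p = 0.00704), qin (−1.07, adjusted p = 0.00133), tej (−0.91, adjusted p = 0.0484) and krimp (−0.84, adjusted p = 0.0429) were called.

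lncRNA:flam was called between the tumor types in GSC-like cells, at 41.9 and 67.4 CPM in Nanos-Upd and 26.1 and 23.8 CPM in TrafficJam-Upd (0.98 ± 0.23, adjusted p = 0.031). Without Nanos-Upd 2, the library with the largest share of GSC-like cells with markers of both lineages, it was not (0.60, adjusted p = 0.154). In CySC-like cells its log2 fold change was 0.65 ± 0.16 (adjusted p = 0.0631 by edgeR, 0.00357 by DESeq2).

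**Figure D5:**
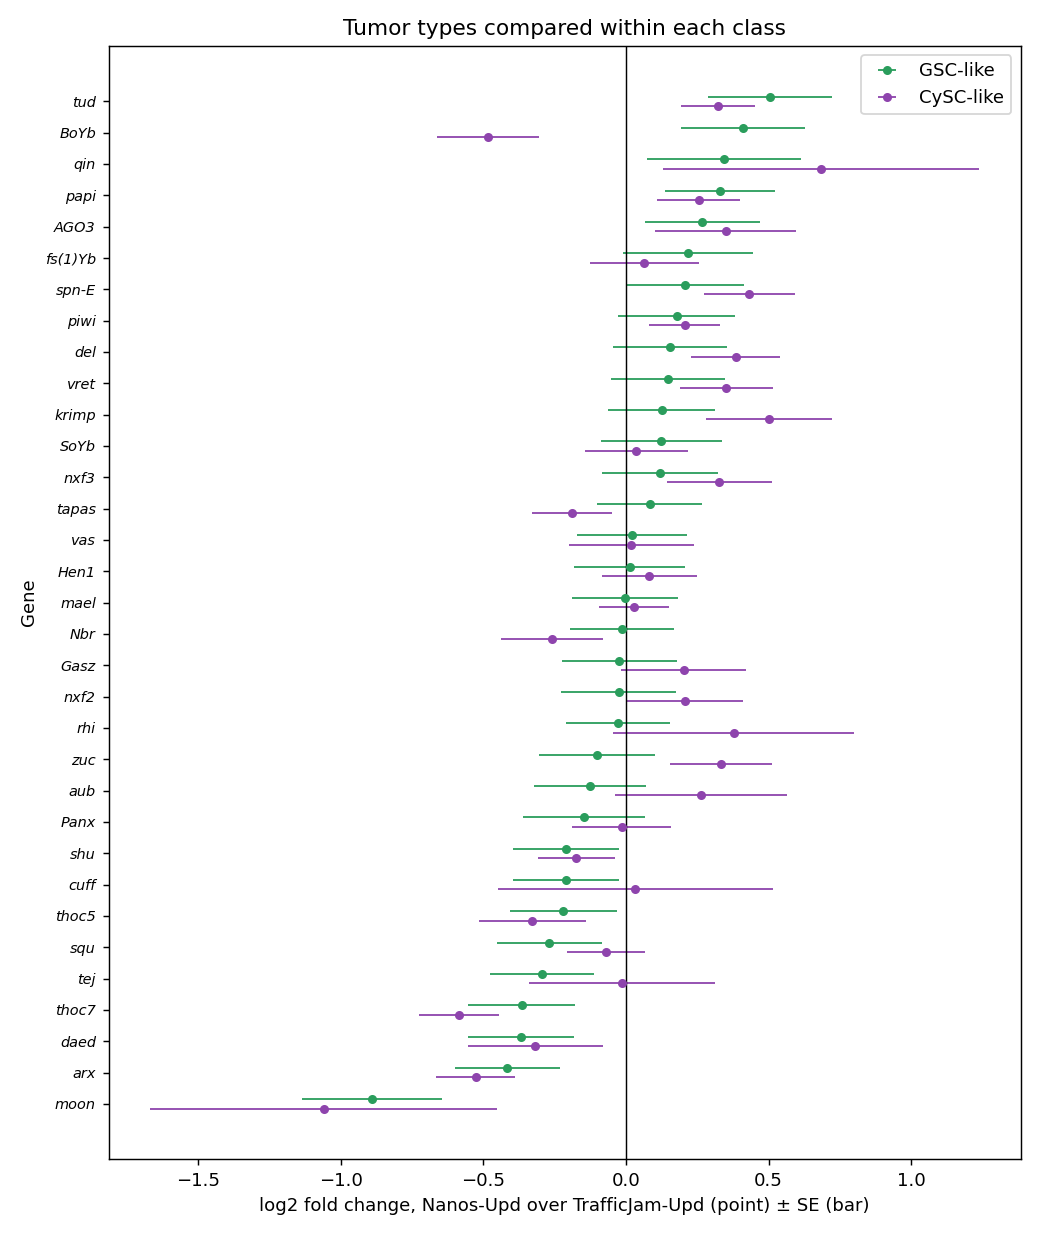
Log2 fold change of Nanos-Upd over TrafficJam-Upd for each piRNA pathway gene tested, in GSC-like (green) and in CySC-like (purple) cells, with the SE as bars. No member passed the threshold of adjusted p under 0.05 in either class, and moon lay lowest with −0.89 and −1.06.

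Spread between libraries differed among members. The coefficient of variation over the 4 libraries had a median of 13.2% over the members in GSC-like cells and of 20.4% in the CySC-like class. qin varied by 33.7% and 55.0% in these classes, with its highest value in Nanos-Upd 2 in both. moon varied by 32.3% and 35.7% and was lowest in Nanos-Upd 2. The members lie on arms 2L (10 genes), 2R (11), 3L (8), 3R (3) and X (2, fs(1)Yb and moon).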

How the data were processed

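RNA was measured in single cells of 4 libraries, 2 per tumor type, grouped by sample title. The authors deposited raw UMI counts per gene and cell, with 1 cell label each and the percent of mitochondrial and ribosomal UMIs per cell. The submitters' processing notes name Cell Ranger 7.0.0, Seurat 5.0.3 and build dm6; how cells were filtered or labelled is not given in the sources used here. All 20618 cells were kept and no doublet caller was run.

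The deposited counts were summed per library and class. Smallest sums held 60 cells. edgeR 4.0.16 (TMM, filterByExpr, robust quasi-likelihood fit, Benjamini-Hochberg over all genes) tested classes with the library as a block, and tumor types without it. SE is the absolute log2 fold change over the root of F. Shares of cells used cells thinned to 2200 UMIs. Shares and floors of 3 UMIs carry counting error only. Positions are from Ensembl's BDGP6.54 annotation.

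Members and lists were chosen with earlier results of these data known. piwi, aub, AGO3, vas and every called member were named in each comparison. moon, arx, tud, thoc7, BoYb and zuc were named after the tumor type values were seen. Alternatives were DESeq2 1.42.0, RLE scaling, no filter on low counts, cells of at least 3000 UMIs, no cells with markers of both lineages, other blocks, each library left out and, added after seeing the data, total UMIs without scaling factors. Scripts were tested on simulated data. boot, Tex and mtgl matched no row.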

Additional observations from a re-analysis of the deposited data

Results flagged for a closer look

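Of 166 sets of 4 libraries (a member in a class) examined for 1 library standing apart, 6 were marked, and chance marks about 1 in 20. The tumor types are pooled in these sets, so a library can stand apart within its type. In the spermatocyte class, Nanos-Upd 2 was the high library for piwi (245 CPM, others 105 to 109 CPM) and for spn-E (88.7 CPM, others 28.1 to 38.4 CPM). In that class 14.2% of the cells of Nanos-Upd 2 had markers of both lineages, and the part of these cells in the 2 values was not tested.

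TrafficJam-Upd 1 stood apart for cuff in CySC-like cells (3.45 CPM, others 4.57 to 4.74 CPM), for krimp in the somatic class (8.58 CPM, others 25.3 to 27.6 CPM, from 60 cells) and for tej in GSC-like cells (137 CPM, others 114 to 115 CPM). TrafficJam-Upd 2 was the only library with UMIs of moon in muscle (10.8 CPM, others 0).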

How the results depend on the processing

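Of 251 counts and shares recomputed under the alternatives, 203 stayed within 1.5 times the reported value or within the spread between libraries, and of 1212 values of single genes 1124 kept direction and side of the threshold, 55 lost a call, 16 gained one and 17 changed sign; the cause was not tested. Between classes, members lower in GSC-like cells numbered 3 with total UMIs alone (6 reported), members higher in the spermatocyte class 0 without the filter on low counts (1 reported), members lower in the somatic class 5 by DESeq2, with cells of at least 3000 UMIs or without the library block (8 reported), and members lower in CySC-like cells than in muscle 2 without that block (5 reported). Leaving out 1 library gave 5 to 9 members lower and 0 to 1 higher in the somatic class (tapas, 0.62 without Nanos-Upd 2). The sign of vas there was 0.078 with cells of at least 3000 UMIs.

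Genes called between tumor types in GSC-like cells (295) numbered 528 by DESeq2, 1154 without the filter, 634 without cells of both lineages' markers, 147 at 3000 UMIs or more and 312 to 1490 with 1 library left out; 1 member (moon) was lower with RLE scaling, without the filter, without mixed cells and in 0 to 1 member with a library left out. In CySC-like cells (247) they numbered 527, 1494 and 111 to 1264 by DESeq2, without the filter and with a library left out, with 2 members lower without the filter, 1 without mixed cells and 0 to 1 with a library left out. Interaction calls (132) numbered 54 by DESeq2, 68 at 3000 UMIs or more and 77 to 280 with a library left out, with 1 member higher with RLE scaling and 0 to 5 lower with a library left out. Replicate numbers did not pair the libraries (correlation of deviations −0.0849 in GSC-like cells and −0.0768 in the CySC-like class, from 2 pairs). With the replicate block, calls numbered 552 (1 member lower, moon, −0.93, adjusted p = 0.0126), 163 and 6, and spn-E lost its call between GSC-like and CySC-like cells (adjusted p = 0.143).

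Tumor type values near 0 changed sign. In GSC-like cells aub was 0.024 with total UMIs alone and vas −0.0092 by DESeq2, −0.0093 with RLE scaling, −0.0028 without mixed cells and −0.068 to 0.089 with a library left out. In CySC-like cells vas was −0.0013 without the filter and −0.33 to 0.38 with a library left out, aub −0.15 to 0.74 and AGO3 −0.012 to 0.61. Interaction values ran from −0.15 to 0.075 for piwi, −0.54 to 0.26 for AGO3 and −0.45 to 0.24 for vas with a library left out. Total UMIs alone moved the median log2 fold change of all genes to −0.39 for the spermatocyte class, 0.26 for CySC-like over muscle, 0.21 and 0.18 for the tumor types in the GSC-like and the CySC-like class, and the share of calls that were higher from 46.9% to 62.4% (muscle), from 65.8% to 84.8% and from 55.5% to 82.9% (tumor types) and from 58.3% to 69.9% (interaction). Mean shares of cells without thinning were 65.6% and 70.8% for piwi, 80.6% and 17.6% for aub, 95.4% and 28.3% for AGO3 and 62.3% and 10.7% for vas, the GSC-like value first. The smallest sums (60 cells) limit the somatic, muscle and spermatocyte levels most.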

Other observations

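Genes of the other small RNA pathways went both ways. Of 11 genes of the siRNA and miRNA machinery, 4 were higher in GSC-like than in CySC-like cells and 2 were lower by edgeR, against 35.1% and 37.4% of all genes tested, with a median log2 fold change of 0.19. blanks, a testis double-stranded RNA binding protein, had 2.42 ± 0.12 (SE), pasha, the partner of Drosha, had 0.95 and loqs, the partner of Dicer-1, had 0.64. Dcr-2, the dicer of the siRNA pathway, was higher in CySC-like cells (−1.82 ± 0.09), as was AGO1, the miRNA Argonaute (−0.83 ± 0.07). In the spermatocyte class loqs was higher than in GSC-like cells (2.48) while 6 genes of the list were lower, against 33.2% higher and 32.6% lower among all genes; those lower included drosha (−1.39), pasha (−1.27) and AGO2 (−1.19).

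Ssl, a gene related to Stellate, was at 55.1, 73.1, 79.4 and 70.3 CPM in the spermatocyte class and between 1.54 and 5.85 CPM in GSC-like cells (log2 fold change 4.62 ± 0.33, adjusted p = 1.83e-06 by edgeR), with no overlap.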
